A study of Mus musculus with 6 samples.

Results

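Cxcl12, Cxcr4 and Ackr3 were followed in each of 6 subcutaneous CT26.WT tumors, 3 from control mice and 3 from mice given interferon-γ (IFN-γ). The 3 genes were picked by their symbols from the 55487 genes of the count table, and all 3 passed the filter on low counts. They were selected on measured values, because the level of each gene in the control and IFN-γ tumors was known when the set was chosen. The difference between the groups is therefore given for these 3 genes as a description, with its standard error and no test. Tests are kept for the other genes of the pathway.

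CT26.WT is a mouse colon carcinoma cell line of the BALB/c strain, and the tumors grew under the skin of male, immunocompetent BALB/c mice aged 4 weeks, all labelled WT. In the IFN-γ group each mouse was given 100 µL of the cytokine at 100 ng/ml by tail vein every 48 h, and control mice were given PBS. RNA came from whole tumors, so each library holds the carcinoma cells together with host fibroblasts, vessels and leukocytes. The comparison asks how the ligand and its receptors differed between tumors of treated and control mice.

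Cxcl12, also called SDF-1, is a chemokine made mainly by fibroblasts, pericytes, endothelium and other stromal cells, and it holds or draws leukocytes that carry its receptor. Cxcr4 is the receptor that signals through inhibitory G proteins and moves cells toward the ligand. Ackr3, once named Cxcr7, binds the same ligand without activating G proteins and takes it into the cell for degradation, which lowers the amount that Cxcr4 can reach. In tumors the axis is known for its role in fibroblast-driven exclusion of T cells and in the recruitment of myeloid cells.

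Cxcl12 (ENSMUSG00000061353) lies on the forward strand of chromosome 6 at 117168535 to 117181367 in build GRCm38 (mm10), and the longest of its 3 coding transcripts has 4 exons over 5627 bases. Cxcr4 (ENSMUSG00000045382) lies on the reverse strand of chromosome 1 at 128588199 to 128592293, with 2 exons over 1805 bases. Ackr3 (ENSMUSG00000044337) lies on the forward strand of the same chromosome at 90203980 to 90216751, with 2 exons over 3065 bases. No other annotated gene overlaps any of them on either strand.

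The promoters are shown so that the start regions of the ligand, which differed widely between tumors, and of its receptors can be read side by side. Each line gives the reference sequence (RefSeq, GRCm38.p6, the C57BL/6J strain rather than BALB/c), from 250 bases before to 50 bases after the start of the gene and read along its strand. Cxcl12 covers chr6:117168285-117168584, Cxcr4 chr1:128592250-128592549 (reverse strand) and Ackr3 chr1:90203730-90204029. Capitals mark a TATA box (TATAAA or its reverse complement TTTATA) or a GC box (GGGCGG or CCGCCC), and neighbouring matches run together where they overlap.
Cxcl12: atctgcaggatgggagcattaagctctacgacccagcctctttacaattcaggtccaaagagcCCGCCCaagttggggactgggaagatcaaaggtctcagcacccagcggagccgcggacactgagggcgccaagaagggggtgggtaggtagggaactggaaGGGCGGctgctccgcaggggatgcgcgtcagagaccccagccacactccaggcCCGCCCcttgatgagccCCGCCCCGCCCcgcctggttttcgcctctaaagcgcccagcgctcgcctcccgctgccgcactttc
Cxcr4: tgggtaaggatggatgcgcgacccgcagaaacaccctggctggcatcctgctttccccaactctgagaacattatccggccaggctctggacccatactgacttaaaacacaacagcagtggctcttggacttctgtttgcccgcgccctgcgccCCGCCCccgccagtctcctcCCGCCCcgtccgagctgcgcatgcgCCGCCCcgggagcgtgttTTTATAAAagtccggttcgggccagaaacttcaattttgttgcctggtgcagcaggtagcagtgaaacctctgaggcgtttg
Ackr3: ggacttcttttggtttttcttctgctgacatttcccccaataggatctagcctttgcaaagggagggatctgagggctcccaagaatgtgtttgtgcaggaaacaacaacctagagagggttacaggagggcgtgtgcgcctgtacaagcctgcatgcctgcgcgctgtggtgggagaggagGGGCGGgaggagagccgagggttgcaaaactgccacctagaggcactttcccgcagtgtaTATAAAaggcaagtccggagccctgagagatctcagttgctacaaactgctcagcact

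The Cxcl12 window held 5 GC boxes and no TATA box, with a GC content of 64.7%. The Cxcr4 window held 3 GC boxes and 2 overlapping TATA matches that begin 32 and 30 bases before the start, with a GC content of 59.3%. In the Ackr3 window there was 1 GC box and 1 TATA match that begins 8 bases before the annotated start, closer to it than those of Cxcr4. The GC content was 54.0% against a median of 52.7% over 27025 promoters. A GC box was found in 35.9% of those promoters and a TATA box in 14.2%. The core letters of the site bound by interferon regulatory factors (GAAANNGAA, in 8.57% of promoters, both strands searched) were not in any of the 3 windows. The same held for the E-box CACGTG (7.24%), the hypoxia core ACGTG (19.7%, which an E-box also contains), the glucocorticoid receptor core ACANNNTGT (6.9%) and the D-box TTATGTAA (0.955%). These are matches of letters in 300 bases and say nothing about binding elsewhere at the genes.

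The libraries held 15759300 to 17559680 counts. In a tumor, 0 counts would allow up to 0.171 to 0.19 CPM, from a floor of 3 counts over the total counts and counting error only. Levels in CPM are otherwise counts scaled to a common library size with TMM factors, unless stated. The defining colon marker Cdx2 was at 0 in all 6 tumors, and 6 of 9 colon epithelium markers passed the filter, led by the keratin gene Krt20 (113 to 271 CPM). IFN-γ tumor 3 stood apart. A list of 16 IFN-γ response genes, led by Gbp2, Iigp1 and Gbp4, summed to 4395 and 4449 CPM in IFN-γ tumors 1 and 2 but to 2074 CPM in tumor 3, inside the control range of 1600 to 2621 CPM. Its keratinocyte markers summed to 70.3 CPM, against 2.75 to 12.6 CPM in the other 5 tumors. The study's own RNA-seq summaries drew on fewer IFN-γ tumors than the libraries used here, without naming which. Results that rest on tumor 3 are given with and without it, and a fit without it leaves out the treated tumor in which the response genes were at control level. Because that tumor was picked by these values, calls and adjusted p values without it are a description. They are no independent test of genes that vary along with the response genes.

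The ligand varied most of the 3 genes. Cxcl12 stood at 39.9, 48.5 and 68.5 CPM in control tumors 1, 2 and 3, and at 90.8, 100.6 and 34.7 CPM in the same-numbered tumors of the IFN-γ group. Tumors 1 and 2 of the IFN-γ group were above every control, and tumor 3 was below every control, so the groups overlapped. The means were 52.3 ± 14.6 CPM in controls and 75.4 ± 35.6 CPM after IFN-γ (SD, n = 3 each), a ratio of 1.44. On the log2 scale the fitted difference was 0.53 with a standard error of 0.36 (edgeR), and without tumor 3 it was 0.86 with a standard error of 0.19. IFN-γ tumors 1 and 2 alone averaged 1.83 times the control mean. In whole tumors, fewer cells that make a transcript and less of it per cell cannot be told apart, here or for any gene that follows.

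The spread of Cxcl12 lay between the tumors rather than in the counting. Its counts ran from 561 to 1647, a counting error of at most 4.22%, while the coefficient of variation between tumors was 28.0% in controls and 47.2% in the IFN-γ group. The highest tumor had 2.9 times the level of the lowest, and both of these were IFN-γ tumors. Among the controls the same ratio was 1.72.

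Cxcr4, the signalling receptor, stayed within a narrow range. It stood at 20.01, 15.1 and 14.5 CPM in the control tumors against 16.3, 17.5 and 13.7 CPM after IFN-γ, in the order of their numbers. Control tumor 1 was the highest of the 6 and IFN-γ tumor 3 the lowest, and the other 4 tumors lay between them with the groups mixed. The means were 16.5 ± 3.01 and 15.8 ± 1.97 CPM (SD, n = 3 each), a ratio of 0.956. The fitted log2 difference was -0.06 with a standard error of 0.16. Its sign turned without control tumor 1 (0.10) or without IFN-γ tumor 3 (0.02). With counts of 221 to 320, the counting error of a single tumor reached 6.73%, against a coefficient of variation of 18.2% in controls and 12.4% after IFN-γ.

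Ackr3, the scavenging receptor, was the member whose groups did not overlap. Its level was 112, 81.8 and 98.9 CPM in the control tumors and 72.4, 65.4 and 81.3 CPM in the IFN-γ tumors. All 3 IFN-γ tumors were lower than all 3 controls, but control tumor 2 and IFN-γ tumor 3 nearly met. The gap between them was 0.54 CPM or 0.66% of the level, less than the counting error of 2.63% in the first and 2.76% in the second, and it was 4.43 CPM when counts were scaled to library size only. The means were 97.6 ± 15.2 and 73.0 ± 7.97 CPM (SD, n = 3 each), a ratio of 0.748. The fitted log2 difference was -0.42 with a standard error of 0.13, and -0.51 with a standard error of 0.13 without IFN-γ tumor 3. Groups that did not overlap, with IFN-γ lower, were seen in 7.5% of the 15114 genes tested, and with IFN-γ higher in 7.62%.

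**Figure D1:**
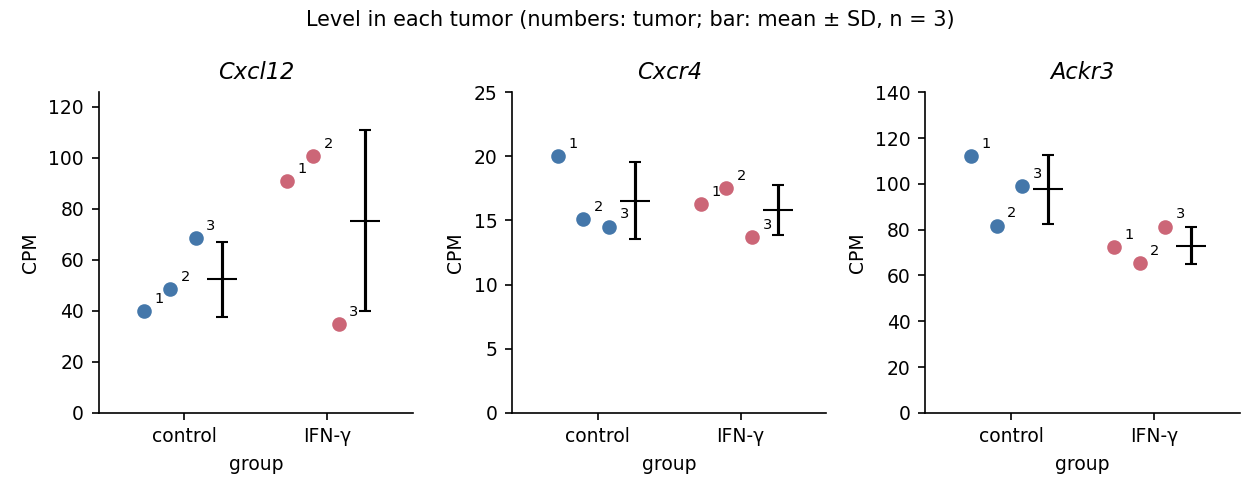
Level of each member in CPM (vertical axes, starting at 0) in the 3 control and 3 IFN-γ tumors, with one numbered point for each tumor and a bar for the mean ± SD (n = 3). Cxcl12 ran from 34.7 to 100.6 CPM within the IFN-γ group, Cxcr4 was mixed between groups, and Ackr3 was at or below 81.3 CPM in IFN-γ tumors and at or above 81.8 CPM in controls.

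The tumors ranked differently for the ligand and for the scavenging receptor. IFN-γ tumor 2 had the highest Cxcl12 and the lowest Ackr3 of the 6, followed in both by IFN-γ tumor 1. IFN-γ tumor 3 had the lowest Cxcl12 but the highest Ackr3 of its group. Control tumor 1 had the highest Ackr3 and Cxcr4 and, with 39.9 CPM, the lowest Cxcl12 of the controls.

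Levels of different genes were compared per kilobase of the longest coding transcript. Ackr3 stood at 36.6, 26.7 and 32.3 CPM per kb in controls and 23.6, 21.3 and 26.5 CPM per kb in IFN-γ tumors, so its level was above that of Cxcr4 in every tumor. Cxcr4 lay between 7.57 and 11.1 CPM per kb. The ratio of scavenging to signalling receptor was 3.3, 3.19 and 4.01 in control tumors and 2.62, 2.2 and 3.5 in IFN-γ tumors. It averaged 3.5 ± 0.446 and 2.77 ± 0.665 (SD, n = 3 each), and the groups overlapped through IFN-γ tumor 3.

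Cxcl12 lay between 6.17 and 17.9 CPM per kb on this scale. Its ratio to Ackr3 was 0.194, 0.323 and 0.377 in controls and 0.683, 0.838 and 0.233 in IFN-γ tumors, again with tumor 3 inside the control range. Its ratio to Cxcr4 was 0.64, 1.03 and 1.51 in controls and 1.79, 1.84 and 0.814 in IFN-γ tumors. The place of Cxcl12 relative to the receptors depends on which transcript is taken as its length. With its shortest complete coding transcript of 1878 bases, the ratio to Ackr3 was between 0.581 and 2.51 and the ratio to Cxcr4 between 1.92 and 5.52. The differences between tumors in a single gene are not touched by that choice.

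Among the 22 chemokine receptor genes, 17 passed the filter. By mean level per kb of the longest coding transcript, Ackr3 was the highest of them in control tumors at 31.8 ± 4.96 CPM per kb (SD, n = 3). It was followed by Ccr1 at 24.1 ± 5.76 CPM per kb, a receptor of inflammatory CC chemokines on myeloid cells. Their difference of 7.79 CPM per kb was larger than either SD. That first place depends on the division by length. In CPM not divided by length, the control means of Ccr2 (113.6 CPM) and Cx3cr1 (107.1 CPM) were above that of Ackr3 (97.6 CPM). In IFN-γ tumors Ackr3 was the fourth at 23.8 ± 2.6 CPM per kb. Next below it in that order was the fractalkine receptor Cx3cr1 (23.1 ± 4.12 CPM per kb), and the difference did not exceed the spread.

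Cxcr4 was the sixth receptor in both groups, at 9.16 ± 1.67 CPM per kb in controls and 8.76 ± 1.09 CPM per kb after IFN-γ (SD, n = 3 each). Its distance to Cxcr6, the receptor of Cxcl16 and next below, was 5.35 CPM per kb in controls, beyond the spread, and 2.49 CPM per kb in IFN-γ tumors, within the SD of 2.79 for Cxcr6. The other receptors of the decoy group were low, with Ackr1 at 0.113 to 1.28 CPM, Ackr2 at 0.186 to 0.875 CPM and Ackr4 at or below 0.186 CPM, and of these only Ackr1 passed the filter in the 6 tumors.

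**Figure D2:**
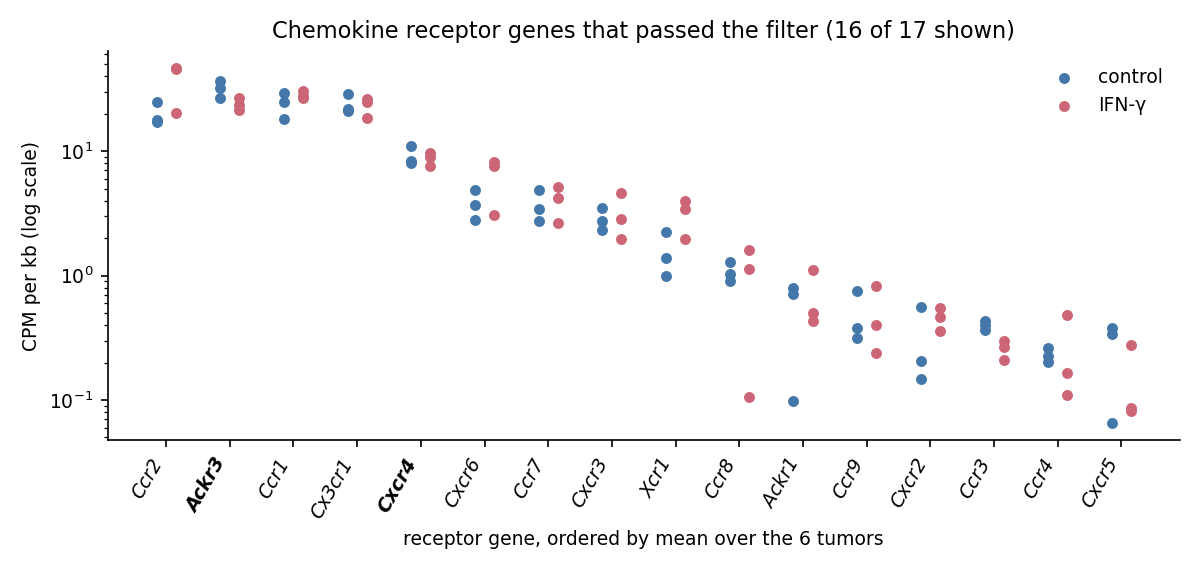
Level of 16 of the 17 chemokine receptor genes that passed the filter, in CPM per kb of the longest coding transcript on a log axis, with 1 point for each control or IFN-γ tumor and genes ordered by their mean over 6 tumors. Ackr3 lies among the highest receptors (21.3 to 36.6 CPM per kb) and Cxcr4 stands below them (7.57 to 11.1 CPM per kb).

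Per kb of the longest coding transcript, Cxcl12 was a middle member of its own family. That place depends on the length taken for Cxcl12, as above. By mean CPM over the 6 tumors, not divided by length, it was the third of the family after Cxcl9 and Cxcl16. Of 15 CXC chemokine genes 13 passed the filter, and Cxcl12 was the eighth in controls at 9.29 ± 2.6 CPM per kb and the seventh in IFN-γ tumors at 13.4 ± 6.32 CPM per kb (SD, n = 3 each). The neutrophil attractant Cxcl1 stood next above it in both groups, within the spread. Cxcl9, the Cxcr3 ligand that IFN-γ is known to induce, led the family at 71.2 ± 29.8 and 137 ± 71.0 CPM per kb.

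The other ligands and receptors tied to the axis were examined gene by gene. Cxcl11, which binds Cxcr3 and also Ackr3, stood at 5.44, 9.25 and 7.14 CPM in controls and 11.7, 18.6 and 5.13 CPM in IFN-γ tumors. As with Cxcl12, tumors 1 and 2 were above every control and tumor 3 below every control. Its log2 difference was 0.70 with a standard error of 0.41 and an adjusted p of 0.62 (edgeR quasi-likelihood test, Benjamini-Hochberg over all genes). Without IFN-γ tumor 3 the difference was 1.04 with a standard error of 0.26 (adjusted p = 0.0756, same test). Cd74, the invariant chain of MHC class II and a receptor for Mif, stood at 405, 854 and 735 CPM in controls and 1517, 1760 and 887 CPM in IFN-γ tumors. Its groups did not overlap, but control tumor 2 and IFN-γ tumor 3 were close, with 15142 and 14338 counts, and their order rests on the TMM factors. The log2 difference of Cd74, 1.06, did not pass the test (adjusted p = 0.321), while without IFN-γ tumor 3 it was 1.29 (adjusted p = 0.034).

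Mif itself, which binds Cxcr4 and Cd74, stood at 143, 128 and 151 CPM in controls against 145, 154 and 186 CPM after IFN-γ. Adm, a peptide hormone that Ackr3 also scavenges, was low at 3.21 to 4.17 CPM in controls and 2.66 to 2.99 CPM in IFN-γ tumors. Its groups, like those of Ackr3, did not overlap, with a log2 difference of -0.40 and an adjusted p of 0.586. Hmgb1, a nuclear protein that can form a complex with Cxcl12, had means of 91.2 ± 17.7 and 91.7 ± 3.78 CPM (SD, n = 3 each). Cxcl14 had means of 55.5 ± 12.0 and 49.7 ± 9.24 CPM, and Cxcr3 4.91 ± 1.01 and 5.43 ± 2.31 CPM. Neither passed the test, with adjusted p values of 0.818 and 0.921.

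Over all 9 pathway lists, the 3 members left aside, 105 of 116 genes passed the filter and none was called higher or lower at an adjusted p under 0.05 in the 6 tumors (edgeR quasi-likelihood test). An unadjusted p under 0.05 was given to 14 of them (13.3%), against 10.2% of all genes tested. DESeq2 called 4 of 115 higher (3.48%) and 0 lower, against 0.439% and 0.272% of the 26868 genes with a count in any tumor. That total includes low-count genes left out of the edgeR fit, so the partners are not set against genes of like level. In the edgeR fit over all genes 12 of 15114 were higher (0.0794%) and 5 lower (0.0331%), so a count of 0 among 105 is close to that background. The median log2 difference of the partners was 0.05, against 0.00 over all genes tested. In 10 of the 105 the groups did not overlap with IFN-γ higher, and in 8 with IFN-γ lower, or 9.52% and 7.62%, near the shares of 7.62% and 7.5% over all genes tested.

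Without IFN-γ tumor 3, 11 of 107 partners were called higher and 0 lower, while over all genes 381 of 15487 were higher (2.46%) and 112 lower (0.723%). Tumor 3 was picked by its response genes, so these calls and their adjusted p values describe that fit and are no independent test. The 11 were spread over 6 of the 9 lists. From the receptor family these were Ccr2, the monocyte receptor for Ccl2, and Cxcr6. Ccr2 stood at 102, 97.7 and 141 CPM in controls and 262, 264 and 116 CPM after IFN-γ. The log2 difference was 0.91 with tumor 3 and 1.202 without it (adjusted p = 0.361 and 0.00964). Cxcr6 had log2 differences of 0.72 and 1.03 (adjusted p = 0.547 and 0.0457). From the CXC family it was Cxcl16, the transmembrane ligand of Cxcr6, at 63.1, 72.6 and 66.3 CPM in controls and 112, 125 and 83.7 CPM in IFN-γ tumors. The groups did not overlap for Cxcl16, with log2 differences of 0.67 and 0.81 (adjusted p = 0.213 and 0.00888).

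From the list of G proteins, kinases and arrestins, the called genes were Gng2, a G protein gamma subunit (0.62, adjusted p = 0.049), and Rgs1 and Rgs2, which speed the shutting off of G proteins and so blunt chemokine signalling. Rgs1 stood at 8.38, 10.3 and 17.8 CPM in controls and 27.9, 30.9 and 18.1 CPM in IFN-γ tumors, and Rgs2 at 17.4, 19.2 and 23.7 against 34.5, 41.5 and 28.1 CPM. In both the IFN-γ tumors were above all controls, tumor 3 included. For Rgs1, however, IFN-γ tumor 3 and control tumor 3 nearly met, with 293 and 312 counts, and their order rests on the TMM factors. Without tumor 3 the log2 differences were 1.26 for Rgs1 and 0.91 for Rgs2 (adjusted p = 0.0419 and 0.0192), and with it they were 1.07 and 0.79 (adjusted p = 0.299 and 0.219).

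Among the other genes of that list none was called in either fit. Gnai2, Gnb1 and Gnb2, the most abundant G protein genes of the list, had log2 differences of 0.09, -0.04 and 0.03, and none passed the test. The receptor kinase Grk2 had means of 155 ± 4.72 and 160.5 ± 8.22 CPM (SD, n = 3 each). The arrestins, which bind phosphorylated Cxcr4 and Ackr3, had means of 88.2 ± 13.1 and 89.1 ± 12.3 CPM for Arrb1, while Arrb2 had a log2 difference of 0.22 (adjusted p = 0.558) and 0.32 without tumor 3 (adjusted p = 0.0686). The groups of the receptor kinase Grk6, named after its values were seen, did not overlap, at means of 149 CPM in controls and 133 CPM after IFN-γ, and it did not pass the test. Of the 12 genes that sort receptors to recycling or degradation, led by Rab7, Usp8 and Usp14, 0 were called in either fit, and their median log2 difference was 0.01.

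Among 20 tested genes downstream of Cxcr4, the called ones without tumor 3 were Ptk2b, a focal adhesion kinase relative, and Rac2 and its activator Dock2, which drive actin in leukocytes. Rac2 stood at 90.4, 109 and 92.6 CPM in controls and 138, 141 and 75.1 CPM in IFN-γ tumors, with tumor 3 below every control. Its log2 difference was 0.28 with tumor 3 and 0.51 without it (adjusted p = 0.725 and 0.0281). Dock2 and Ptk2b had log2 differences of 0.58 and 0.61 without tumor 3 (adjusted p = 0.0227 and 0.0224), and in both the level in tumor 3 was below every control. The most abundant genes of the list, the GTPases Rhoa, Rac1 and Cdc42, which all cell types use, had log2 differences of 0.05, 0.05 and 0.11 over the 6 tumors.

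Proteases and matrix carriers set how much Cxcl12 protein persists. Of 9 protease genes known to cut Cxcl12, 7 passed the filter and none was called in either fit. Mmp14 had means of 158.5 ± 4.72 and 161 ± 10.2 CPM and Mmp2 36.6 ± 10.4 and 41.1 ± 15.1 CPM (SD, n = 3 each). Mmp9, a gelatinase of neutrophils and macrophages, stood at 49.2, 18.04 and 25.2 CPM in controls and 17.4, 20.1 and 10.95 CPM in IFN-γ tumors, with overlapping groups and an adjusted p of 0.437.

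Heparan sulfate chains hold Cxcl12 on cell surfaces and matrix. Of 19 genes of carriers and enzymes, 18 passed the filter in the 6 tumors. Sdc3, a syndecan core protein, was called only in the fit without tumor 3, at a log2 difference of 0.69 (adjusted p = 0.0268), and it had 0.44 with that tumor (adjusted p = 0.605). Hpse, the enzyme that cuts heparan sulfate, stood at 202, 211 and 199 CPM in controls and 259, 247 and 253 CPM in IFN-γ tumors, and the groups were well apart at a log2 difference of 0.31 (adjusted p = 0.222). The perlecan gene Hspg2 and the glypican gene Gpc1, the other abundant members, had log2 differences of -0.19 and -0.15.

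**Figure D3:**
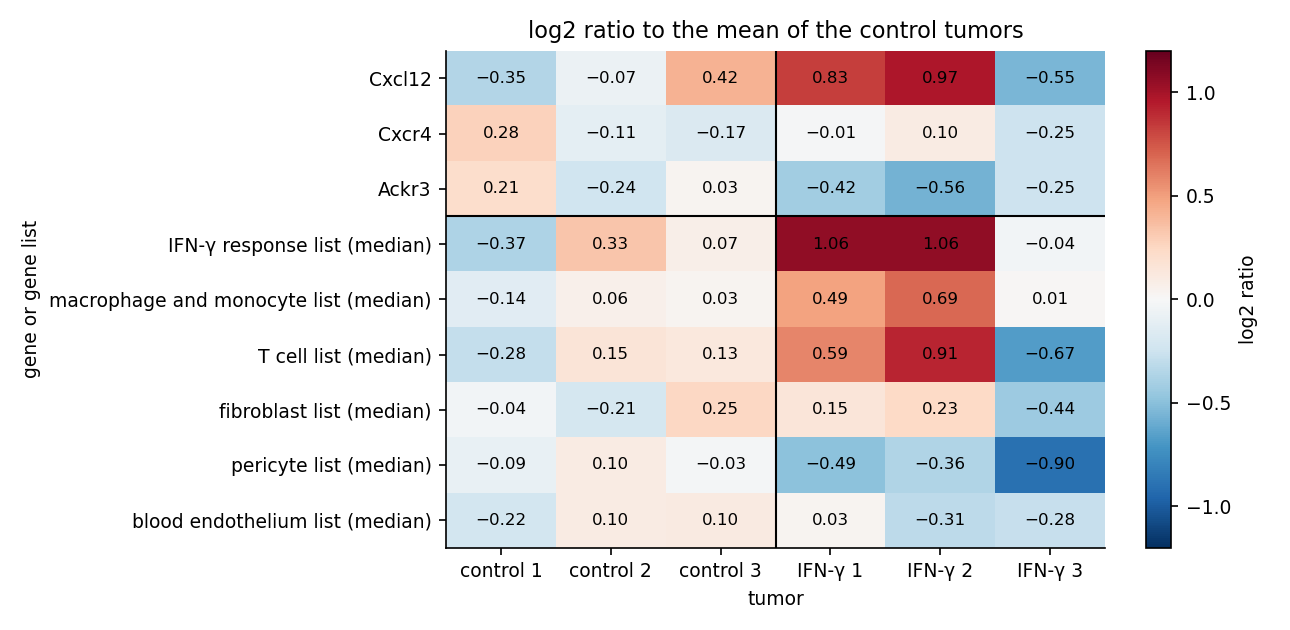
log2 ratio of each tumor to the mean of the 3 controls, computed on log2(CPM + 0.5), for the 3 members (upper rows) and as the median over genes for marker and response lists (lower rows). IFN-γ tumor 3 is below the controls' mean in all 3 members (-0.55, -0.25 and -0.25), while IFN-γ tumors 1 and 2 are high in Cxcl12 (0.83 and 0.97) and low in Ackr3 (-0.42 and -0.56).

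Several marker lists differed between tumors along with the members. In IFN-γ tumors 1 and 2, where Cxcl12 was high, the sums of the response list above and of the macrophage and monocyte, T cell, dendritic cell and neutrophil lists were above those of the other 4 tumors. The macrophage list of 9 markers, led by Lyz2, C1qa and C1qb, summed to 5178 and 6272 CPM in those tumors and to 3383 to 4095 CPM in the other 4. The T cell list summed to 123 and 151 CPM in them, to 65.2 to 96.3 CPM in controls and to 50.5 CPM in IFN-γ tumor 3. The dendritic cell list summed to 59.4 and 61.6 CPM against 29.7 to 46.7 CPM in the other 4. For the neutrophil list the sums were 44.9 and 48.1 against 29.7 to 40.8 CPM. Csf3r alone gave 38.8 CPM of the first sum and 38.7 CPM of the second. The neutrophil list had a median log2 ratio to the controls of -0.243 for IFN-γ tumor 1 and 0.267 for tumor 2. Control tumor 1 (0.719) and IFN-γ tumor 3 (0.532) had higher medians, while control tumors 2 and 3 had -0.483 and -0.236. Over the 6 tumors, 0 genes of the response, macrophage and T cell lists were called higher. Without tumor 3, 14 of 16 response genes, 6 of 9 macrophage markers and 0 of 10 T cell markers were called higher, against 2.46% of all genes tested. Tumor 3 was set apart by that same response list, so the calls in the list without it are no test. For the macrophage and T cell lists the counts without tumor 3 describe that fit and are no independent test. The 12 fibroblast markers, led by Col1a2, Col3a1 and Col1a1, had 0 calls. They summed to 4290, 3564 and 5531 CPM in controls and 5125, 5544 and 3559 CPM in IFN-γ tumors. The sum was lowest in IFN-γ tumor 3, the tumor with the lowest Cxcl12, but that of control tumor 2 was nearly equal. Control tumor 2 had more Cxcl12 than control tumor 1 (48.5 against 39.9 CPM), whose fibroblast sum was higher. The 8 adipocyte markers, led by Fabp4, Cfd and Cidec, summed to 105 to 148 CPM in controls and 150 to 204 CPM in IFN-γ tumors, tumor 3 included. The sums of the groups did not overlap, but those of control tumor 3 and IFN-γ tumor 1 nearly met. The 5 skeletal muscle markers ran from 121 to 813 CPM in controls, highest in control tumor 3, and from 140 to 432 CPM in IFN-γ tumors. The part of these lists in the level of Cxcl12 was not tested.

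Beside the lower Ackr3 of the IFN-γ group stood the lists of vessel cells, since endothelial cells are known to express the gene, and 2 lists of other cells. The 9 pericyte markers summed to 342 to 447 CPM in controls and 241 to 312 CPM in IFN-γ tumors, with groups that did not overlap and 0 of 9 fitted differences above 0. In 6 of the 9 the groups did not overlap with IFN-γ lower (7.5% of all genes tested), and 1, the potassium channel subunit Abcc9, was called lower in the 6 tumors at a log2 difference of -1.25 (adjusted p = 0.0293; 0.0331% of all genes were called lower). The 11 blood endothelium markers, led by Pecam1, Cdh5 and Kdr, summed to 303 to 377 and 249.1 to 323 CPM, so their sums overlapped, and 3 of them did not overlap with IFN-γ lower. Within the IFN-γ group the order differed from that of Ackr3, since tumor 3 had the lowest sum of both lists and the highest Ackr3. For the colon epithelium list, the median log2 ratios to the controls were -0.46, -0.51 and -0.12 in IFN-γ tumors 1, 2 and 3. All of these were below every control, and within the IFN-γ group they followed the order of Ackr3. Among controls the order differed, since control tumor 2 had the highest median (0.0298) and the lowest Ackr3. The sums of this list overlapped, because IFN-γ tumor 3 had the largest of all (288.6 CPM). Control sums ran from 172.7 to 193.2 CPM, above those of IFN-γ tumors 1 and 2 (133.8 and 126.6 CPM). The B cell list had medians of -1.15, -0.25 and -0.07, also below every control, with overlapping sums. The part of these cells in the level of Ackr3 was not tested.

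Lists of cell programmes were summed in the same way. The 15 clock genes summed to 452 to 529 CPM in controls and 1023 to 1079 CPM in IFN-γ tumors, and 9 glucocorticoid targets summed to 616 to 735 and 903 to 989 CPM, so neither list overlapped between groups. The clock sum joins genes of both directions. Of 14 tested, 11 did not overlap with IFN-γ higher and 3 with IFN-γ lower (7.62% and 7.5% of all genes tested). In the 6 tumors 7 were called higher, of 12 over all genes, and 1 lower, of 5. The lower one was Arntl (log2 difference -2.12, adjusted p = 7.28e-05, edgeR quasi-likelihood test). The 10 hypoxia targets overlapped, at 652 to 767 and 617 to 977 CPM, highest in IFN-γ tumor 3. Their part in the members' levels was not tested.

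The fitted differences of the 3 members under each fit show which of them rest on single tumors. Cxcl12 was above 0 in all 12 alternatives, between 0.26 and 0.86 when a tumor was left out. Ackr3 was below 0 in all 12, between -0.53 and -0.31 when a tumor was left out. Cxcr4 kept its sign in 10 of 12. The direction of the members was known when they were chosen, so these counts describe the fits and are no test of them.

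**Figure D4:**
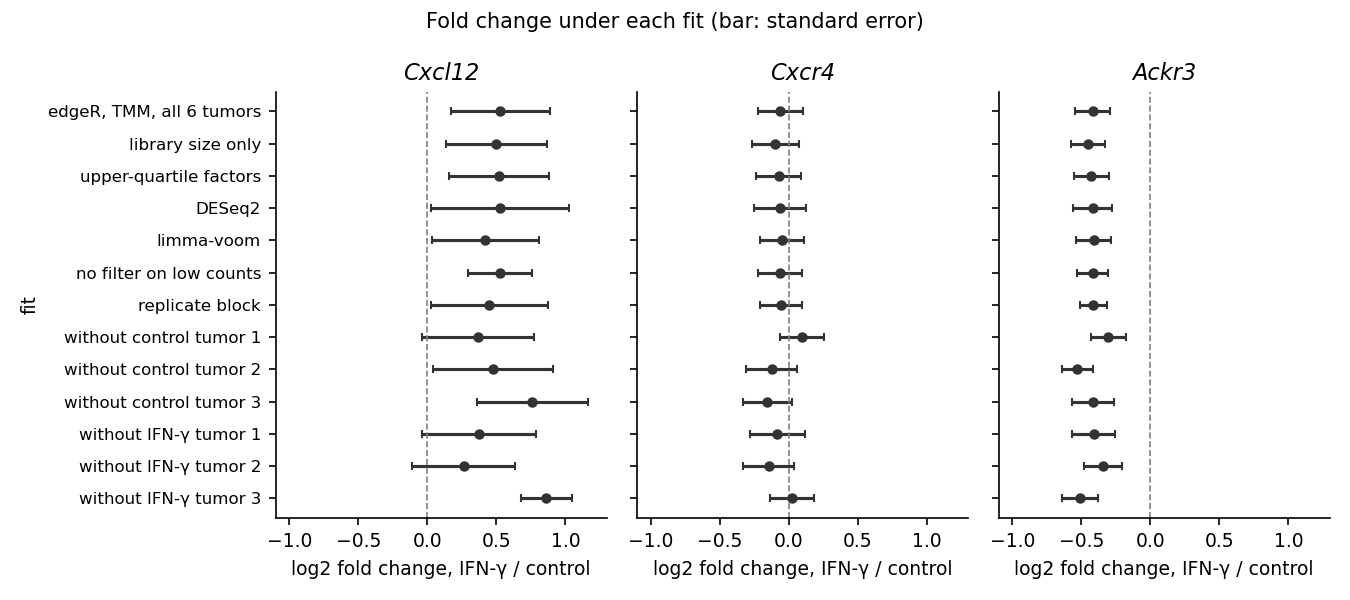
Fitted log2 fold change of IFN-γ over control for each member (horizontal axes, with a dashed line at 0) under 13 fits, with bars for the standard error. Leaving out IFN-γ tumor 3 moves Cxcl12 from 0.53 to 0.86, while Ackr3 stays between -0.53 and -0.31 and Cxcr4 lies on both sides of 0.

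For each member, the 5 genes whose levels over the 6 tumors were most like it were sought among 11331 genes with a mean of at least 5 CPM, by Pearson's r of log2(CPM + 0.5). With 6 points that share libraries and groups, high values are found for any gene, and they are given as a description. For Cxcl12 they were Atp8b4 (r = 0.994), Gm44751 (0.993), Serpinb6b (0.991), Ptpro (0.991) and Gbp11 (0.991). Serpinb6b stood at 13.6, 15.8 and 19.7 CPM in controls and 25.1, 29.3 and 13.1 CPM in IFN-γ tumors, the same order of tumors as Cxcl12.

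For Cxcr4 the 5 genes were Sh3rf3 (r = 0.993), Mfap1a (0.973), Rhebl1 (0.962), Tmub2 (0.961) and Pqlc3 (0.955). For Ackr3 they were Tfe3 (0.994), Lta4h (0.978), Dnajc10 (0.968), Cdk17 (0.968) and Zfp330 (0.967). Cdk17 had 52.1, 44.5 and 47.4 CPM in controls and 36.6, 34.4 and 42.7 CPM in IFN-γ tumors, the order of tumors of Ackr3. No gene of the pathway lists was among the 15.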

How the data were processed

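RNA from 6 CT26.WT tumors was sequenced, and per the labels total RNA was extracted with Trizol. The deposited table gives raw read counts for each gene as the authors made it, without scaling. The submitters' processing notes name HISAT2 and mm10, and the counter, annotation and strandedness are not given in the sources used here. All 6 columns were used. Totals were 15759300 to 17559680 counts per tumor.

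In R 4.3.3, edgeR 4.0.16 was used for TMM scaling and for the test (filterByExpr, group-only model, quasi-likelihood test, Benjamini-Hochberg adjustment over all genes tested, threshold 0.05). P-values set the difference between the groups against the spread between these tumors, which edgeR moderates over all genes. Alternatives were DESeq2 1.42.0, limma 3.58.1 (voom), other factors, no filter, a replicate block and leaving out each tumor. Scripts were checked on simulated counts. Lengths came from GENCODE (GRCm38), which held 99.5% of the gene identifiers. Promoter sequences came from RefSeq (GRCm38.p6), and the motifs were fixed consensus letters searched in them. The members, gene lists and motifs were chosen with earlier results of these data known. Named genes were the members, called pathway genes, the 3 most abundant of each list, the axis list, the filtered genes of both chemokine families (singly only those near a member) and the 5 genes most like each member. Abcc9, Arntl, Cdx2 and Ackr4 were named after their values were seen. Protein sequences were not used here. The values of 1 receptor gene and 1 motif are not reported here.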

Additional observations from a re-analysis of the deposited data

How the results depend on the processing

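Genes called higher and lower numbered 12 and 5 in the 6 tumors. They numbered 7 and 4 with library size only, 118 and 73 with DESeq2, 10 and 3 with limma-voom and 150 and 70 with no filter on low counts. Leaving out 1 tumor gave 4 to 381 higher and 2 to 112 lower, the highest of both without IFN-γ tumor 3. Partner genes called higher numbered 0 in the 6 tumors, 4 with DESeq2 (Cxcl16, Hpse, Rgs1 and Rgs2) and 5 with no filter, which also called 1 lower (Cxcl13), and leaving out 1 tumor gave 0 to 11 higher, 11 only without IFN-γ tumor 3, and 0 to 0 lower. The cause was not tested. With the shortest complete coding transcript, chosen after seeing the data, the mean log2 ratio per kb moved from 0.24 to 1.82 for Cxcl12 over Cxcr4 and from -1.39 to 0.20 for Cxcl12 over Ackr3, through the shorter length of Cxcl12 alone.

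Deviations from the group means correlated at -0.241, -0.00473 and -0.221 between tumors of the same number, which gave no ground for pairing them. With a replicate block 5 genes were higher and 2 lower, and 0 partners were called. The log2 fold changes under the settings other than leaving out a tumor were 0.42 to 0.53 for Cxcl12, -0.10 to -0.05 for Cxcr4 and -0.45 to -0.41 for Ackr3. With 3 tumors a group and 1 of the treated tumors at control level in the response genes, the difference of Cxcl12 is imprecise, and that of Cxcr4 has no stable sign.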
